A study of Mus musculus with 6 samples.

Results

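Mir34a, Mir34b, Mir34c, Pvt1 and Neat1 are 5 genes whose products are RNAs that are not translated and that have been tied to p53. They were taken by name from the 37310 genes of the GENCODE vM1 annotation of the mouse genome (assembly mm9) on the 22 chromosomes compared. For each gene, p53 ChIP-seq peaks were collected from 30 kb upstream of the annotated gene start to 5 kb downstream of the gene end, read along the strand of the gene. No rule on a measured value entered that choice, but earlier results of these data were known when it was made. Mir34b and Mir34c lie next to each other and share their peaks, so the 5 genes stand for 4 separate loci.

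ChIP-seq sequences the DNA fragments recovered with an antibody, here against p53 (NCL-p53-CM5p), and a peak is a stretch where such fragments pile up. All mice were of the C57/Bl6 strain. B cells were splenocytes that carry B220 on their surface, and the rest of the spleen is called non-B cells. Both came from Trp53+/+ mice of 8 weeks that were mock treated or had received whole-body ionizing radiation of 7 Gy 4 h earlier (IR). Total spleen of irradiated Trp53-/- mice, which lack p53 and whose age is not stated in the labels, gave the background of the antibody. Per the methods of the study, chromatin was pooled from 10 animals. The lists hold no expression values, so the cell types could not be checked against marker genes.

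The peak lists held 1413 (mock B cells), 24507 (irradiated B cells), 712 (mock non-B cells), 21400 (irradiated non-B cells) and 83 peaks (Trp53-/- spleen). Each group had 1 library, so there was no replicate spread against which a difference could be set, and no p-value is given. Each peak carries 1 deposited value, read here as −log10 of the authors' p-value for that peak and called the peak value. It depends on sequencing depth, which is unknown, and is not normalised between libraries, so peaks were ranked within their own list, with rank 1 the highest. A site that lacks a peak can still have been bound at a level the caller missed. No peak was narrower than 55 bp (mock B cells), 53 bp (mock non-B cells), 175 bp (irradiated B cells), 174 bp (irradiated non-B cells) or 55 bp (Trp53-/- spleen), so mock and IR widths cannot be compared directly. In bulk chromatin, more p53 per cell and more cells with p53 on the site cannot be told apart.

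MicroRNAs of the miR-34 family silence mRNAs that match their seed, among them mRNAs of cell cycle and survival proteins, and are textbook targets of p53. Mir34a has a locus of its own, whereas Mir34b and Mir34c come from a shared primary transcript. Pvt1 is a long noncoding RNA gene beside the oncogene Myc, and Neat1 gives the RNA scaffold of the nuclear bodies called paraspeckles. p53 binds DNA as a tetramer at its response element, a pair of decamers that lie side by side or are split by a short spacer.

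The mature microRNAs are shown because their seeds, bases 2 to 8 in capitals, tell which arms are alike between the loci. The sequences are those of RefSeq (GRCm38.p6).
miR-34a-5p: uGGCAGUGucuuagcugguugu
miR-34b-5p: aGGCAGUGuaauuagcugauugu
miR-34b-3p: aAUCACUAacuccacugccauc
miR-34c-3p: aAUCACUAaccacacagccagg
miR-34a-3p: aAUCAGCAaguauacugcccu
The 5p arms of miR-34a and miR-34b share 1 seed, and the 3p arms of miR-34b and miR-34c share another, from which that of miR-34a-3p differs. The mature sequence of miR-34c-5p is not shown.

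The next sequences are the unsplit p53 response elements found in the highest peak of each locus. They are printed 5′ to 3′ on the strand of the gene (mm9) with 15 bases on either side, and the element of 20 bases is in capitals.
Mir34a, chr4:149423212-149423261, plus strand: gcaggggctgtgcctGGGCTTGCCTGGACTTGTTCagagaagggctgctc
Mir34b and Mir34c, chr9:50914013-50914062, minus strand: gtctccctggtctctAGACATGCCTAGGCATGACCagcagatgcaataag
Pvt1, chr15:61870747-61870796, plus strand: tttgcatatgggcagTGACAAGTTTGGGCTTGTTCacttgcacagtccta
Neat1, chr19:5837978-5838027, minus strand: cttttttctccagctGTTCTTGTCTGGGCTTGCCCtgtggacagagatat
The Mir34a element matched the consensus without a mismatch. The Mir34b/Mir34c and Pvt1 elements each had 1 mismatch, and the Neat1 element had 2. Up to 3 mismatches were allowed over both decamers, both strands were searched, and the central C and G of each decamer were required. A match describes the letters and does not show that p53 sat there.

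All 5 genes had a p53 peak after irradiation in both compartments, and none had one in irradiated Trp53-/- spleen. The windows held 19 peaks in irradiated B cells, where 46.7% of all annotated genes had at least 1 peak in a window built in the same way. In irradiated non-B cells they also held 19 peaks, against 45.1% of all genes with a peak, so the presence of a peak after irradiation was common. Without irradiation, 4 of the 5 genes had a peak in B cells (background 4.4% of all genes) and 2 of 5 in non-B cells (2.18%). Mir34a and Pvt1 had a peak in both mock lists, as did 1.76% of all genes. In the Trp53-/- list, 0.107% of all genes had a peak in their window. The Trp53-/- peak nearest to any of the 5 genes lay 12.7 Mb away, on the chromosome of Pvt1.

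Genes of like kind gave lower or higher backgrounds. Of the 1577 annotated microRNA genes, 2.6% had a peak in mock B cells, 30.2% in irradiated B cells, 1.2% in mock non-B cells and 28.2% in irradiated non-B cells. Of the 2546 genes of at least 100 kb, a class to which only Pvt1 belongs among the 5, 9.47% had a peak in mock B cells and 61.1% in irradiated B cells. In non-B cells the shares of these long genes were 4.99% for mock and 57.8% for IR.

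The peaks of the 5 genes were then placed by rank within their lists. All 5 had a peak in irradiated B cells within the highest 20% of the list, against 15.5% of all genes. In irradiated non-B cells this held for 4 of 5, without Neat1, against 15.3% of all genes. Mir34a and Pvt1 had a peak within the highest 1% of both IR lists. Taken 1 list at a time, 0.903% of all genes had one in irradiated B cells and 0.769% in irradiated non-B cells. The share of all genes with one in both IR lists was not computed. Both limits on rank were chosen after the values had been seen and describe these genes only.

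**Figure D1:**
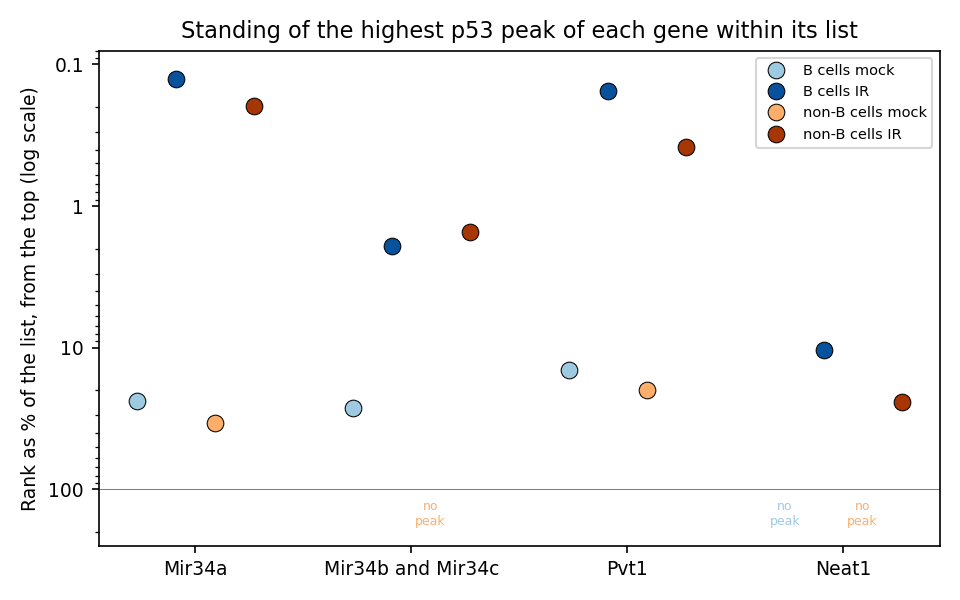
Rank of the highest p53 peak of each locus as a percent of its list (vertical log axis, the top of the list uppermost), with 1 point per peak list; lists without a peak are written out below the line at 100%, and the Trp53-/- list, which has no peak at any locus, is left out. Mir34a and Pvt1 lie above 1% in both IR lists, Mir34b and Mir34c between 1 and 10%, and Neat1 below them.

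Mir34a (ENSMUSG00000065493.1, chr4:149442563-149442664, plus strand) had its main p53 peak far upstream of the microRNA. In mock B cells the peak at chr4:149423143-149423346 had a value of 13.0 and rank 338 of 1413. In mock non-B cells the peak at chr4:149423233-149423288, only 56 bp wide, had a value of 13.5 and rank 242 of 712. After irradiation the same place stood near the top of both lists. In irradiated B cells, chr4:149421490-149424020 had a value of 293 and rank 31 of 24507, and in irradiated non-B cells, chr4:149421462-149423996 had a value of 489 and rank 42 of 21400. The IR peaks were 2531 and 2535 bp wide, and their midpoints lay 19.8 kb upstream of Mir34a.

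The element printed above for Mir34a begins 105 bp downstream of the start of Gm13067, a noncoding transcript annotated at chr4:149423122-149431085 on the same strand as the microRNA. The centre of the element lay 19326 bp upstream of Mir34a. It was 8 bp from the midpoint of the mock B cells peak and 24 bp from that of the mock non-B cells peak, which begins inside the element. In the IR lists it was 482 bp and 508 bp from the midpoints, inside the wide peaks but off their centres. Peaks with an unsplit element free of mismatches anywhere along the peak were rare, 1.39% of the irradiated B cells list and 1.55% of the irradiated non-B cells list. Among them the Mir34a peak stood 3rd by value of 340 in irradiated B cells and 9th of 332 in irradiated non-B cells, but 26th of 33 in mock B cells.

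A pair of lower peaks flanked that site after irradiation in both compartments. The peak 27.5 kb upstream of Mir34a had a value of 19.4 in irradiated B cells (rank 12522) and 8.44 in irradiated non-B cells (rank 19901). It held an unsplit element with 2 mismatches. The peak 8.3 kb upstream had a value of 19.5 in irradiated B cells (rank 12188) and, 8.4 kb upstream, 16.3 in irradiated non-B cells (rank 12604), with no unsplit element within 300 bp. Neither site had a peak in a mock list, and their percentiles within the 2 IR lists ran from 7.00 to 50.3.

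Mir34b (ENSMUSG00000065492.1, chr9:50911667-50911750, minus strand) and Mir34c (ENSMUSG00000065587.1, chr9:50911139-50911215, minus strand) had 1 p53 peak between them in each list that held any. In mock B cells it spanned chr9:50913970-50914079 and had a value of 12.5 and rank 379 of 1413. In mock non-B cells and in Trp53-/- spleen no peak was listed. The peak of irradiated B cells, chr9:50913706-50914526, had a value of 154 and rank 472 of 24507, and in irradiated non-B cells the peak at chr9:50913662-50914609 had a value of 219 and rank 326 of 21400. The only mock peak at this locus was thus in B cells, while both irradiated compartments had one within the highest 2% of the list.

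The Mir34b/Mir34c site lies between genes, 2288 bp upstream of Mir34b and 2823 bp upstream of Mir34c, as measured to the centre of the element. That element was 13 bp from the peak midpoint in mock B cells, 78 bp in irradiated B cells and 98 bp in irradiated non-B cells. Among the peaks whose best unsplit element had 1 mismatch, this one stood 129th of 1081 in irradiated B cells, 99th of 1011 in irradiated non-B cells and 46th of 64 in mock B cells.

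**Figure D2:**
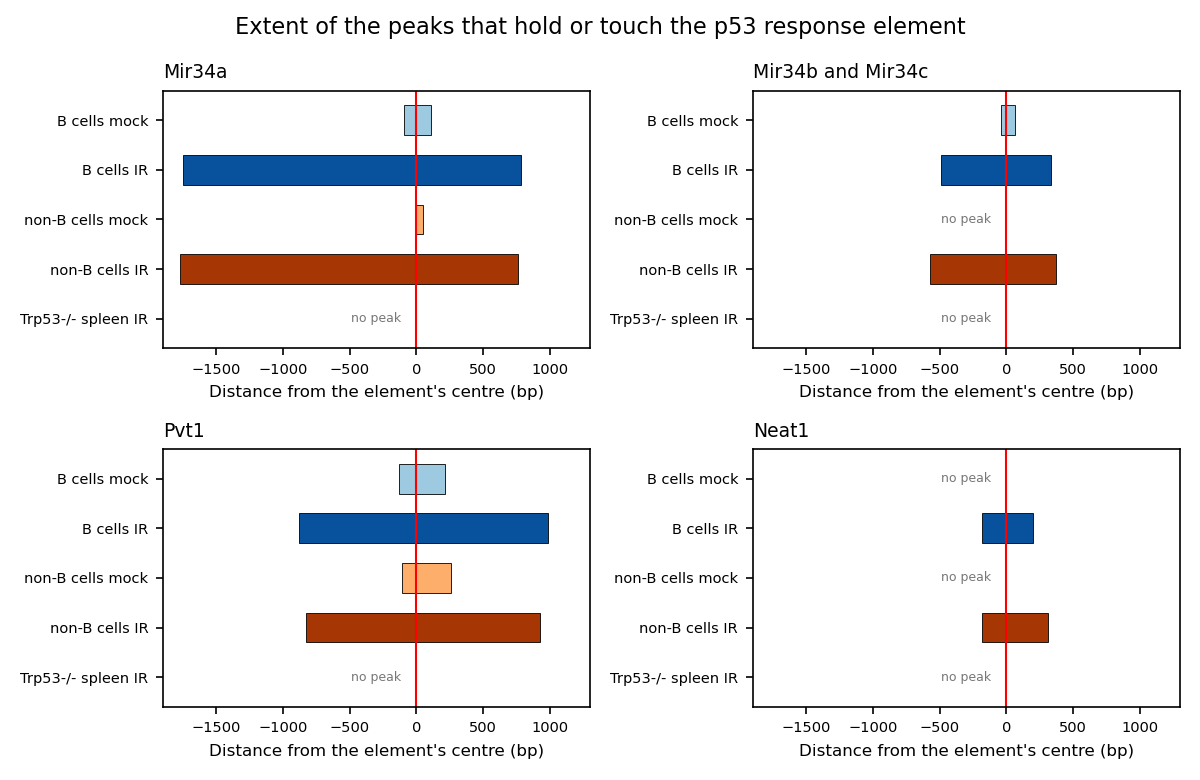
Span of the peak that holds or touches the printed response element at each locus, in bp from the centre of the element (red line). Distances run along the strand of the gene, with 1 bar per peak list and "no peak" where a list has none. At Mir34a the element lies off the centre of the IR peaks, which are 2531 and 2535 bp wide, and bars of mock and IR lists are not to be compared in width, since the smallest peak of the lists differs (53 to 55 bp for mock, 174 to 175 bp for IR).

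Pvt1 (ENSMUSG00000072566.3, chr15:61869542-62209651, plus strand) carried p53 near its start in all 4 wild-type lists. The mock B cells peak at chr15:61870642-61870986 had a value of 18.5 and rank 204 of 1413, and the mock non-B cells peak at chr15:61870662-61871033 had a value of 20.1 and rank 142 of 712. These were the best ranks of any of the 5 genes without irradiation. In irradiated B cells, chr15:61869895-61871760 had a value of 287 and rank 38 of 24507, and in irradiated non-B cells, chr15:61869942-61871695 had a value of 436 and rank 82 of 21400. The 4 peaks overlap in the first part of an intron of Pvt1, about 1.3 kb downstream of the gene start. The unsplit element, 1230 bp downstream of the start, was 42 bp from the peak midpoint in mock B cells, 76 bp in mock non-B cells, 56 bp in irradiated B cells and 47 bp in irradiated non-B cells. Among peaks with 1 mismatch in the best element, the Pvt1 peak stood 14th of 1081 in irradiated B cells and 23rd of 1011 in irradiated non-B cells, but 31st of 64 in mock B cells and 20th of 44 in mock non-B cells.

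After irradiation, peaks were spread along the whole body of Pvt1, all of them in introns by their midpoint. For every IR peak from 126.89 kb downstream of the Pvt1 start onward, the nearest annotated start was that of H2afy3, not that of Pvt1. Irradiated B cells had 11 peaks and irradiated non-B cells had 9 in the window of 375 kb, of which 7 in each list overlapped a peak of the other list. This was 2.93 and 2.40 peaks per 100 kb, against medians of 0.519 and 0.430 over the genes of at least 100 kb, of which 89.2% and 88.1% had a lower density. The mock lists had no peak in the window other than the one near the start.

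A site deep in the gene, 144 kb from its start, had a value of 87.5 in irradiated B cells (chr15:62012977-62013542, rank 1321) and 74.9 in irradiated non-B cells (chr15:62012943-62013440, rank 1444). Another, 217 kb from the start, had a value of 101 in irradiated B cells (chr15:62085961-62086748, rank 1043) and 67.3 in irradiated non-B cells (chr15:62086140-62086805, rank 1700). Neither of these sites held an unsplit element within 300 bp of the midpoint. The site 217 kb from the start held an element with 2 mismatches whose decamers were split by 8 bases. The other 8 peaks of the irradiated B cells list ranged from 12 to 59.2 and the other 6 of the irradiated non-B cells list from 12.2 to 41.9. The 4 peaks found in irradiated B cells and not in irradiated non-B cells had values of 12 to 23.4, and the 2 found the other way round had 12.2 and 25.8. The peaks not shared were thus of low or middle rank, the best being rank 7485 of 21400. The highest of the 4, chr15:62182520-62182777, lay less than 500 bp from chr15:62182933-62183257, which was shared. Merging peaks closer than 500 bp joined these 2, so it need not be a separate site.

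**Figure D3:**
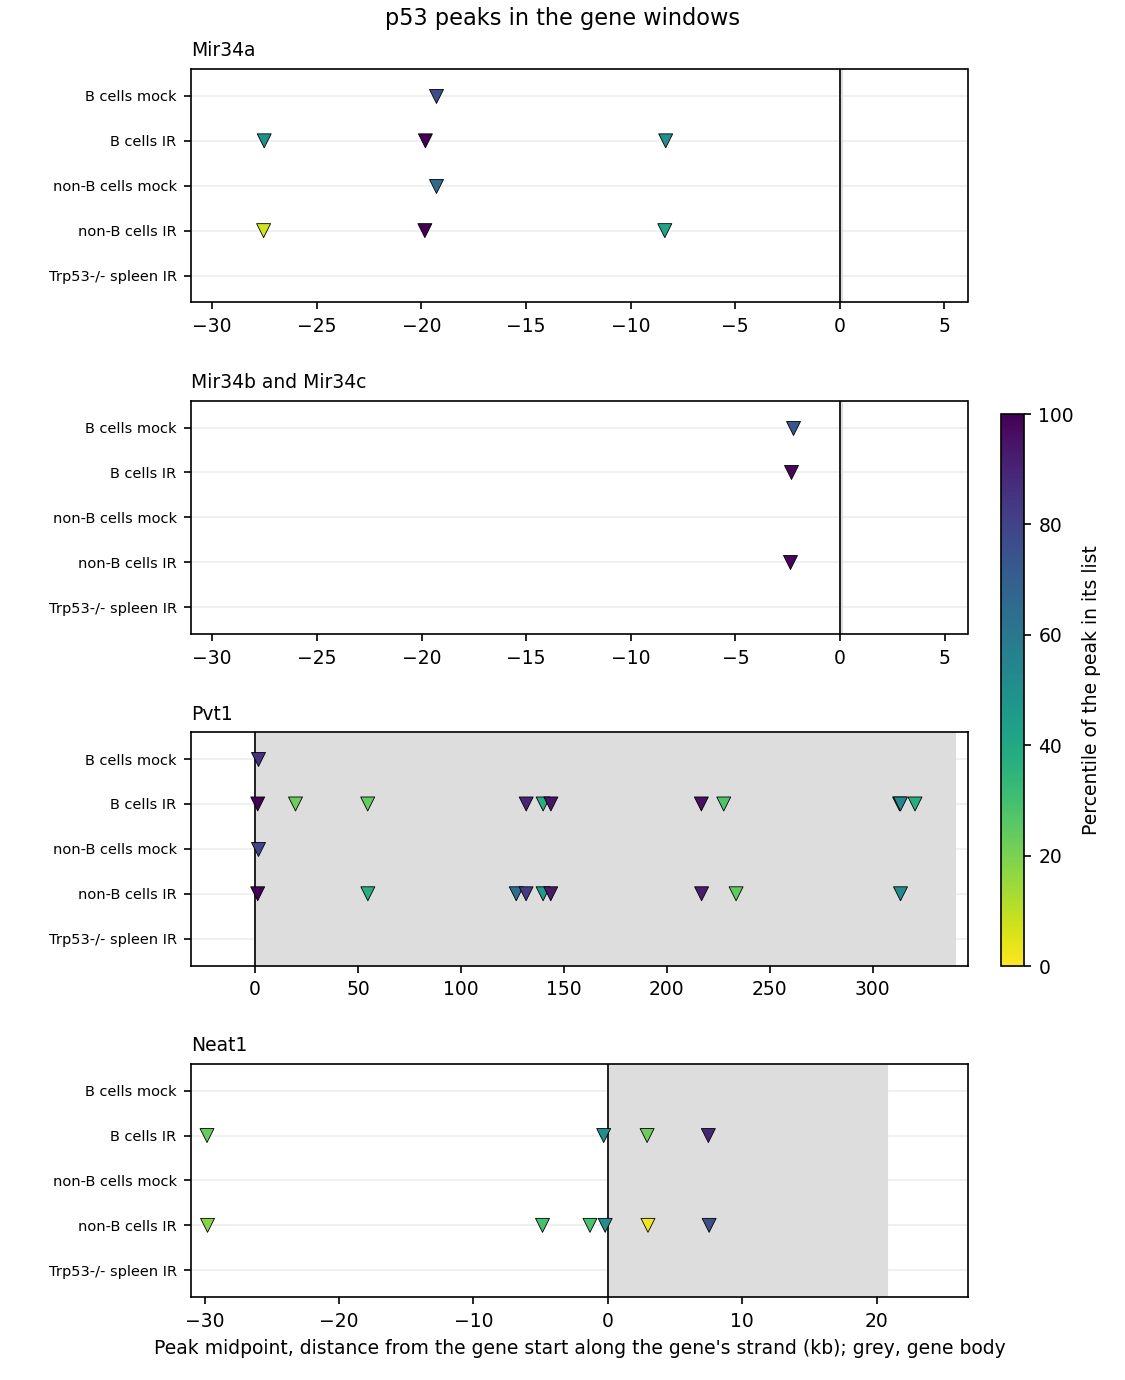
p53 peaks in the windows of the 4 loci, placed by the distance of their midpoint from the gene start in kb along the strand of the gene (for the shared locus, from the start of Mir34b), with 1 row per peak list; colour gives the percentile of the peak within its list, dark for high, and the gene body is grey. The dark IR peaks at Mir34a, Mir34b/Mir34c and the start of Pvt1 lie where a mock list also has a peak, and the Trp53-/- rows are empty. Other IR peaks of high percentile have no mock peak, such as those 144 and 217 kb from the Pvt1 start and the main Neat1 peak of irradiated B cells.

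Neat1 (ENSMUSG00000092274.1, chr19:5824708-5845478, minus strand) had no peak in either mock list and the lowest main peak of the 4 loci after irradiation. Its highest peak lay inside the transcript. In irradiated B cells, chr19:5837806-5838181 had a value of 59.7 and rank 2547 of 24507, and in irradiated non-B cells, chr19:5837690-5838181 had a value of 33.8 and rank 5133 of 21400. The unsplit element of that site, with 2 mismatches and 7475 bp downstream of the start, was 9 bp and 67 bp from the midpoints. Among peaks with 2 mismatches in the best element, this one stood 320th of 1039 in irradiated B cells and 422nd of 869 in irradiated non-B cells.

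A lower peak covered the start of Neat1 in both IR lists. It had a value of 19.5 and rank 12130 in irradiated B cells (chr19:5845453-5846115) and a value of 19.5 and rank 10366 in irradiated non-B cells (chr19:5845370-5845975), near the middle of each list. No unsplit element lay inside either of these start peaks. One more site, 2.9 kb downstream of the start in irradiated B cells and 3.0 kb in irradiated non-B cells, had values of 11.99 (rank 19037) and 6.92 (rank 20961). The latter was the only one of all peaks in the 5 windows with a value under 8, the limit of the peak caller that the study states.

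The upstream part of the Neat1 window takes in its neighbour Frmd8. A peak 29.8 kb upstream of Neat1 lay at the start of Frmd8, with a value of 12.1 in irradiated B cells and 11.2 in irradiated non-B cells. Irradiated non-B cells had a further peak 4.9 kb upstream of Neat1 in an exon of Frmd8, with a value of 13.2, and one 1.3 kb upstream of Neat1, with a value of 13.1 and an unsplit element of 3 mismatches. Neither of the latter had a counterpart in irradiated B cells.

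Across the loci the order of the main peaks was the same in both irradiated compartments. The ranks in irradiated B cells were 31 for Mir34a, 38 for Pvt1, 472 for Mir34b and Mir34c, and 2547 for Neat1. In irradiated non-B cells they were 42, 82, 326 and 5133 in that order of genes. Mir34a and Pvt1 are neighbours in this order with values of 293 and 287 in irradiated B cells, and with 1 library per group it cannot be said whether they differ. In the mock lists Pvt1 ranked above Mir34a, at 204 against 338 in B cells and 142 against 242 in non-B cells.

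Every mock peak of the 5 genes overlapped an IR peak of the same compartment, 3 of 3 for B cells and 2 of 2 for non-B cells. Over the whole mock lists the shares were 88.2% and 90.9%. Seen from the irradiated side, 3 of 19 peaks in irradiated B cells overlapped a mock peak (4.28% of the whole list), and 2 of 19 in irradiated non-B cells (2.43%). Between the irradiated compartments, 15 of 19 peaks were shared in either direction, against 73.6% of all irradiated B cells peaks and 85.3% of all irradiated non-B cells peaks. Of the mock peaks, 2 of the 3 in B cells overlapped one in non-B cells, against 31.3% of the mock B cells list, and 2 of 2 the other way round, against 67.1%.

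Sites listed both before and after irradiation can be put in order of value within each list, which needs no common scale. In B cells 1046 sites were listed in both. Mir34a stood 245th of them by mock value and 26th by IR value. Pvt1 stood 149th and 29th, and the Mir34b/Mir34c site 272nd and 204th. In non-B cells, with 519 such sites, Mir34a stood 180th by mock value and 34th by IR value, and Pvt1 115th and 64th. Each site at these loci thus stood higher among the same sites after irradiation, in B cells by the fewest places at Mir34b/Mir34c, and with 1 library per group no error can be set on these steps.

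**Figure D4:**
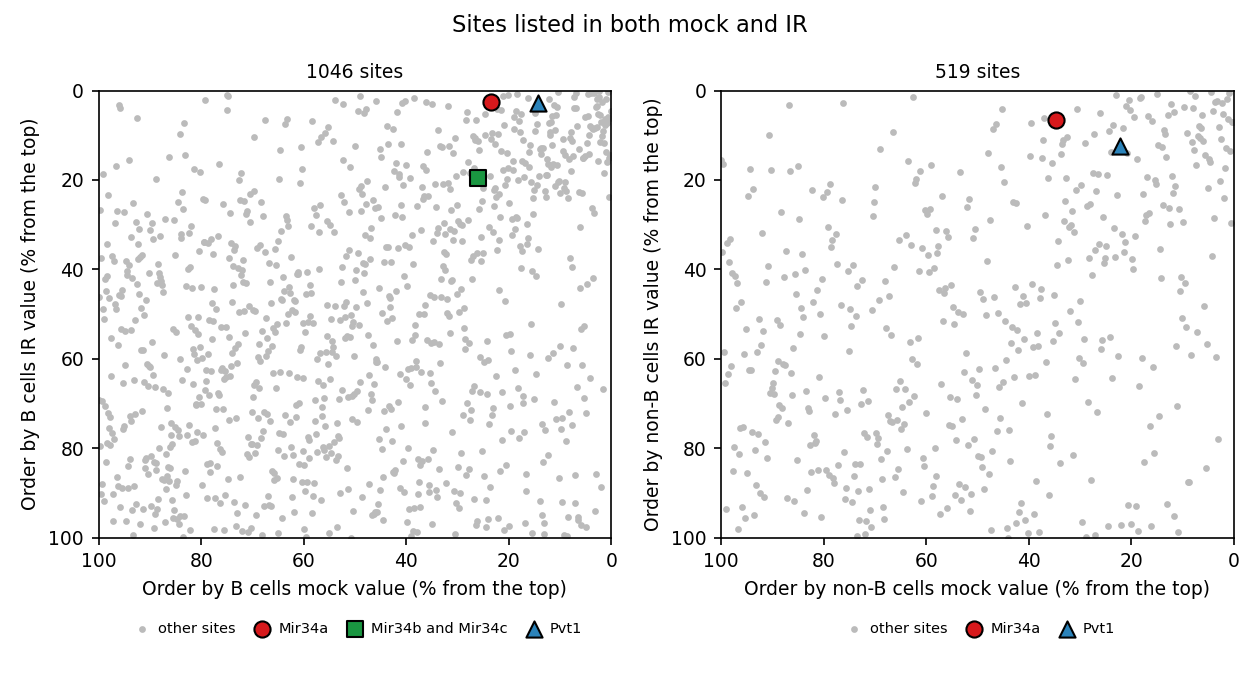
Sites with a peak in both the mock and the IR list of B cells (left) and non-B cells (right), by their order in the mock list (horizontal) and in the IR list (vertical), both in percent from the top, so that the upper right corner holds sites high in both. In B cells Mir34a and Pvt1 lie in the top 3% by IR value at 23.4 and 14.2% by mock value, and in non-B cells they lie at 6.55 and 12.3% by IR value.

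The same ordering between the irradiated compartments, over 17868 shared sites, gave place 31 in B cells against 42 in non-B cells for Mir34a, 38 and 82 for Pvt1, and 471 and 326 for Mir34b/Mir34c. The main Neat1 site stood 2542nd in B cells against 5080th in non-B cells. The largest shift in place at these genes was that of the peak 27.5 kb upstream of Mir34a, from 11834th in B cells to 17082nd in non-B cells.

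Unsplit response elements were frequent in the mock peaks of these genes and rarer in their IR peaks. Within 300 bp of the midpoint, 3 of 3 peaks in mock B cells and 2 of 2 in mock non-B cells held one, against 22.3% (95% Wilson interval 20.2 to 24.5%) and 34.6% (31.1 to 38.1%) of the whole lists. After irradiation 6 of 19 peaks held one in each compartment, against 15.3% (14.9 to 15.8%) in irradiated B cells and 15.4% (14.9 to 15.9%) in irradiated non-B cells. Windows of the same length moved by 10 kb held one in 2.53 to 3.30% of cases over the 4 lists. The wide IR peaks at Mir34a are not among the 6, since their element lies more than 300 bp from the midpoint. In each list the 6 include the peak at the start of Frmd8, whose element, with 3 mismatches, lies outside the peak itself. Elements split by 1 to 15 bases were found in 6 of 19 peaks in irradiated B cells and 10 of 19 in irradiated non-B cells, against 41.3% and 40.6% of the lists and 34.3% and 34.2% of moved windows. The intervals cover counting error only.

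Other genes with a like pattern were sought by the percentile of the highest peak in each of the 4 wild-type lists, set to 0 where a list had none. The measure was the largest difference over the 4 lists. Only genes annotated as protein-coding, lincRNA, miRNA or processed transcript were compared, with windows apart from that of the gene in question. Where several genes shared the same highest peaks, only the first by position was kept. A name below thus stands for a set of peaks that other genes nearby may share. Nearest to Mir34a were Mbp, Trmt5 and Bhlhe41, with largest differences of 2.39, 2.83 and 4.10 percentile points. Nearest to Mir34b and Mir34c were Txlnb, Hist1h1b and Arhgef17 (0.959, 1.06 and 1.54 points). Nearest to Pvt1 were Fam162a, Tab2 and 1810064F22Rik (1.13, 1.91 and 2.09 points), and nearest to Neat1 were Gm12703, Lgr6 and Sipa1 (0.173, 0.588 and 0.698 points).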

How the data were processed

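p53 ChIP-seq peak lists of 5 libraries were used. Per the methods of the study and the submitters' processing notes, reads were aligned to mm9 with BWA 0.6.2 and peaks were called with MACS by the authors, with 1 list per library. Each list gives position and 1 value per peak, read here as the authors' −log10 p-value: in the wild-type lists 25.2 to 35.1% of the values below 40 matched a Poisson tail at a single background mean, against a median of 0.458 to 0.655% over other means. The Trp53-/- list was assumed to share this unit. The stated limit of 8 on this scale was not applied to the deposited lists, of which 4.50 to 31.6% lay below it.

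Peaks overlapping a gene window by at least 1 bp were collected and ranked within each list, ties by width. For genes with many peaks, the 3 highest, the one nearest the start and those over mock peaks were named. The response element was sought within 300 bp of peak midpoints and in whole peaks. The input library was not used here. The genes, the lists and the rule for names were chosen with earlier results of these data known. Overlap and element steps were tested on simulated lists. The software was Python 3.11.15 with samtools 1.23.1, pysam 0.24.0, numpy 2.4.6, pandas 2.3.3, scipy 1.17.1 and, for plots, matplotlib 3.10.9.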

Additional observations from a re-analysis of the deposited data

How the results depend on the processing

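Of 128 recomputed values, 100 stayed within 1.5 times a count or within the interval of a percentile, and 28 moved. Some of the 100 could not move. No peak of the 5 genes overlapped a Trp53-/- peak, so the 10 values with such peaks removed were fixed. The Trp53-/- counts were 0 under every setting. Under ranking by width, 12 percentiles moved and 1 stayed. Limited to 30 kb upstream to 5 kb downstream of the gene start, the windows held 8 peaks in irradiated B cells and 10 in irradiated non-B cells, since most Pvt1 peaks lie in the gene body. From 5 kb upstream to 2 kb downstream they held 3 in irradiated B cells, 1 in mock non-B cells and 5 in irradiated non-B cells, and 1 gene had a peak in mock non-B cells. With 50 kb upstream, mock non-B cells had 4. Requiring a value of at least 20 left 0 peaks in mock B cells, 9 in irradiated B cells, 1 in mock non-B cells and 9 in irradiated non-B cells, and 0 genes in mock B cells and 1 in mock non-B cells. With midpoints within 500 bp, 1 mock non-B cells peak was shared with irradiated non-B cells. Searching the whole peak gave 1 mock non-B cells peak with an element, and a spacer of 0 to 15 bases gave 10 in irradiated non-B cells.

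Ranked by width in place of value, the percentiles of Mir34a became 81.0 in mock B cells, 99.92 in irradiated B cells, 13.6 in mock non-B cells and 99.93 in irradiated non-B cells. Mir34b and Mir34c became 58.2 in mock B cells, 93.5 in irradiated B cells and 97.1 in irradiated non-B cells. Pvt1 became 90.4 in mock B cells, 99.7 in irradiated B cells and 89.3 in mock non-B cells, and Neat1 57.5 in irradiated B cells and 79.2 in irradiated non-B cells. No paired analysis was possible because a group never had more than 1 library.

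Depth is unknown, so an absent peak sets no upper limit on binding. The lists hold no summits, and midpoints stood in for them. A peak inside a window need not act on the gene the window was built for.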

Other observations

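Of 23 further noncoding RNA genes that have been tied to p53, 15 were annotated by name in GENCODE vM1. Trp53cor1, Mir15a, Mir16-1 and Mir1204 to Mir1208 were not found by name. Their peaks were not looked up, and the counts and ranks below leave these genes out. In irradiated B cells 9 of these had a peak in the same kind of window, in irradiated non-B cells 8, and in both mock lists and Trp53-/- spleen 0. Over all annotated genes the shares with a peak were 46.7% and 45.1% in the irradiated lists, so such a peak was common. In the mock lists they were 4.4% and 2.18%. Over the annotated microRNA genes, a class to which many of the 15 belong, the shares were 30.2% and 28.2% in the irradiated lists. Some of the 15 share a peak, and a difference from either background was not tested. None of the 15 reached the rank of Mir34a, Mir34b, Mir34c or Pvt1, nor, in irradiated B cells, that of Neat1 (rank 2547). In irradiated non-B cells Mir22, Mir200c, Mir141, Mir192, Mir194-2 and Malat1 all ranked above Neat1 (rank 5133). Mir22, a microRNA, had a value of 45.2 (rank 4011) in irradiated B cells and 54.99 (rank 2308) in irradiated non-B cells, 2.7 and 2.4 kb upstream of its start. Mir200c and Mir141, microRNAs of the family that represses the ZEB factors, share a cluster and a highest peak with values of 47.2 (rank 3718) and 48.7 (rank 2851). The best rank in irradiated B cells was that of Mir200c and Mir141, and the best in irradiated non-B cells that of Mir22. Mir192 and Mir194-2, which also share a cluster, had values of 25.3 (rank 9131) and 44.6 (rank 3328). Malat1, the long noncoding RNA gene next to Neat1, had its highest peak at the gene start in irradiated B cells, with a value of 37.3 (rank 5327), and 0.964 kb upstream of it in irradiated non-B cells, with a value of 42.1 (rank 3652). Dleu2 had values of 17.1 and 19.3, and Gas5 16.5 and 9.84. H19, an imprinted noncoding RNA gene, had a peak in irradiated B cells only, with a value of 23.5. It lay 29.952 kb from the gene start, at the edge of the window. In irradiated B cells the highest peaks of Mir200c, Mir192 and Dleu2 lay 11.8, 23.3 and 33.4 kb from the gene starts.

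Just outside the windows, 2 peaks of mock non-B cells lay in exons of Myc, the gene upstream of Pvt1, with values of 12.2 (rank 279) and 5.81 (rank 700), 49.9 and 48.5 kb upstream of Pvt1. Irradiated non-B cells had 1 peak there, with a value of 9.27 (rank 19132), and neither B cell list had one within 50 kb upstream of Pvt1. That irradiated peak reached past the limit, with its midpoint 50.2 kb upstream of Pvt1 and 375 bp from the start of Myc. The limit thus stops short of the Myc start, and B cell peaks beyond it were not sought here.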
